A study of Mus musculus with 25 samples.

Results

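Genes that carry a cell through mitosis were examined in mouse hematopoietic stem cells with and without ZNF143, a zinc finger protein that binds promoters and is studied here as a partner of the chromatin structure factor CTCF. The 40 genes are a fixed list of cyclins, kinases, checkpoint proteins, kinetochore subunits and spindle motors, of 23116 genes in the deposited expression table. The list was drawn by function, with earlier results of these data known. All 40 were present in the table and matched a gene of the GENCODE vM21 annotation on GRCm38.

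The cells were HSLAM cells, hematopoietic stem cells sorted from bone marrow as LSK+ CD150+ CD48-. They came from 3 pairs of male littermate mice on a C57BL/6 background with both Znf143 alleles floxed around exon 1, 3 libraries without Cre (Znf143 f/f) and 3 with Rosa26ERT2-Cre (Znf143 -/-), all given a middle dosage of tamoxifen by intraperitoneal injection for 10 days. The sources used here do not say which libraries form a littermate pair. The methods give 8 to 12 weeks as the age of the mice. Rosa26 drives the inducible Cre in the whole body, so that the deletion was not restricted to stem cells, and the f/f mice carried no Cre. RNA was amplified with the SMART-Seq v4 kit for very small inputs, which keeps no strand.

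Cells enter mitosis when cyclin B and Cdk1 become active, after Cdc25 phosphatases have removed inhibitory phosphates from Cdk1. Kinetochores assemble on centromeres that contain the histone variant Cenpa and attach chromosomes to the spindle, and the checkpoint kinases and Mad2 hold back anaphase until each kinetochore is attached. The anaphase-promoting complex with Cdc20 then marks securin and cyclin B for destruction, separase opens cohesin, and the central spindle guides cytokinesis. Most of these genes are transcribed in G2 and mitosis. Their level in a bulk sample depends on the share of dividing cells as well as on the RNA in each dividing cell, and fewer cells of a type and less RNA per cell cannot be told apart here. Stem cells of the adult marrow divide rarely.

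Expression was given as FPKM, the fragments per kilobase of gene length scaled to the depth of the library, and was divided by a factor per library (0.997, 0.911 and 0.994 for f/f 1 to 3, 0.932, 1.02 and 1.21 for -/- 1 to 3) that sets the median gene at the same level in each library. Every FPKM below is on this rescaled scale and can be turned back into the deposited value with its factor. The third -/- library had the largest factor, and its deposited values carry the divisor of the second, 1.197 times too small for its own 57895793 fragments on genes. The 6 libraries held 38643255 to 57895793 fragments on genes. Zfp143, the mouse symbol of Znf143, had 3.07, 4.43 and 3.66 FPKM in f/f and 0.155, 0.298 and 0.270 FPKM in -/- libraries, a log2 fold change of -3.50 (adjusted p = 0.001003, limma). The genotypes were thus taken as Znf143, although a field of the deposited labels names the knockout CTCF.

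The libraries did not stand equally far apart within a genotype. Over genes with at least 20 fragments in a pair, the chi-square per gene, which is near 1 when fragments differ by sampling only, was 5.10 between f/f 1 and f/f 3 and 7.02 between -/- 2 and -/- 3. It was 88.2 to 132 for the other pairs of the same genotype and 80.2 to 210.1 between genotypes. Among genes with fewer than 200 fragments in a pair it was 1.70 and 1.68 for the close pairs, against 6.94 to 9.99 for the other pairs of the same genotype. The labels name all 6 as separate samples, so each was counted as a replicate. The close pairs differed by more than sampling noise, which does not show that they came from separate animals. Whether the close libraries came from separate animals was not tested, and the p-values measure only the spread between these libraries, which may be technical in part. The counts over the 40 genes are also given with each close pair averaged into 1 sample, and without f/f 2 and -/- 1, both chosen after the data were seen. Calls of other genes are also given with each close pair averaged.

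None of the 40 genes passed the test of the genotype difference. On log2(FPKM + 0.1), limma with Benjamini-Hochberg adjustment over all 19279 genes tested called 1154 genes, or 5.99% (3% higher and 2.99% lower in Znf143 -/-), and 0 of the 40, with an adjusted p of 0.0751 for Cdc25c as the lowest. At an unadjusted p under 0.05 there were 4 of the 40 (10%), namely Cdk1, Cdc25c, Mad2l1 and Spc25, against 24.2% of all genes tested. With voom on the fragments recovered from FPKM, 0 of the 40 passed, with 4 at an unadjusted p under 0.05. With each close pair averaged, 47 genes passed in all and 0 of the 40, with 1 at an unadjusted p under 0.05. All 40 passed the filter on low values, a mean of 0.1 FPKM, and the least covered value, Kif4 in 1 library, still rested on 671 fragments.

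The differences were small, and more were positive than negative. The log2 fold change was positive for 25 genes (62.5%) and negative for 15, with a median of 0.069, against 50.7% positive and a median of 0.0065 over all genes tested. It ranged from -0.27 for Mki67 to 0.59 for Spc25. In 10 of the 40 (25%) every -/- library was above every f/f library, against 15.4% of all genes tested, and in 2 (5%) every -/- library was below, against 15.3%. The 10 were Cdk1, Ccnb2, Cdc25c, Mad2l1, Ttk, Espl1, Ndc80, Nuf2, Spc25 and Kif20a, and the 2 were Plk1 and Kif23. For a single gene, an exact permutation test of 3 libraries against 3 cannot give a p below 0.1, two-sided, and each of these 12 genes reached that value.

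The intervals limit how large a change could be for most of the genes. The 95% interval of the fold change lay within 1.5-fold in either direction for 30 of the 40 genes (75%), against 32.7% of all genes tested. It lay within 2-fold for 39, Spc25 being the exception with an upper bound of 2.03. The 40 genes sat higher than most, with a median mean level of 13.0 FPKM that exceeded 78.3% of genes tested, and intervals are narrower at high levels. With each close pair averaged, 10 of the 40 intervals lay within 1.5-fold and 37 within 2-fold.

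**Figure D1:**
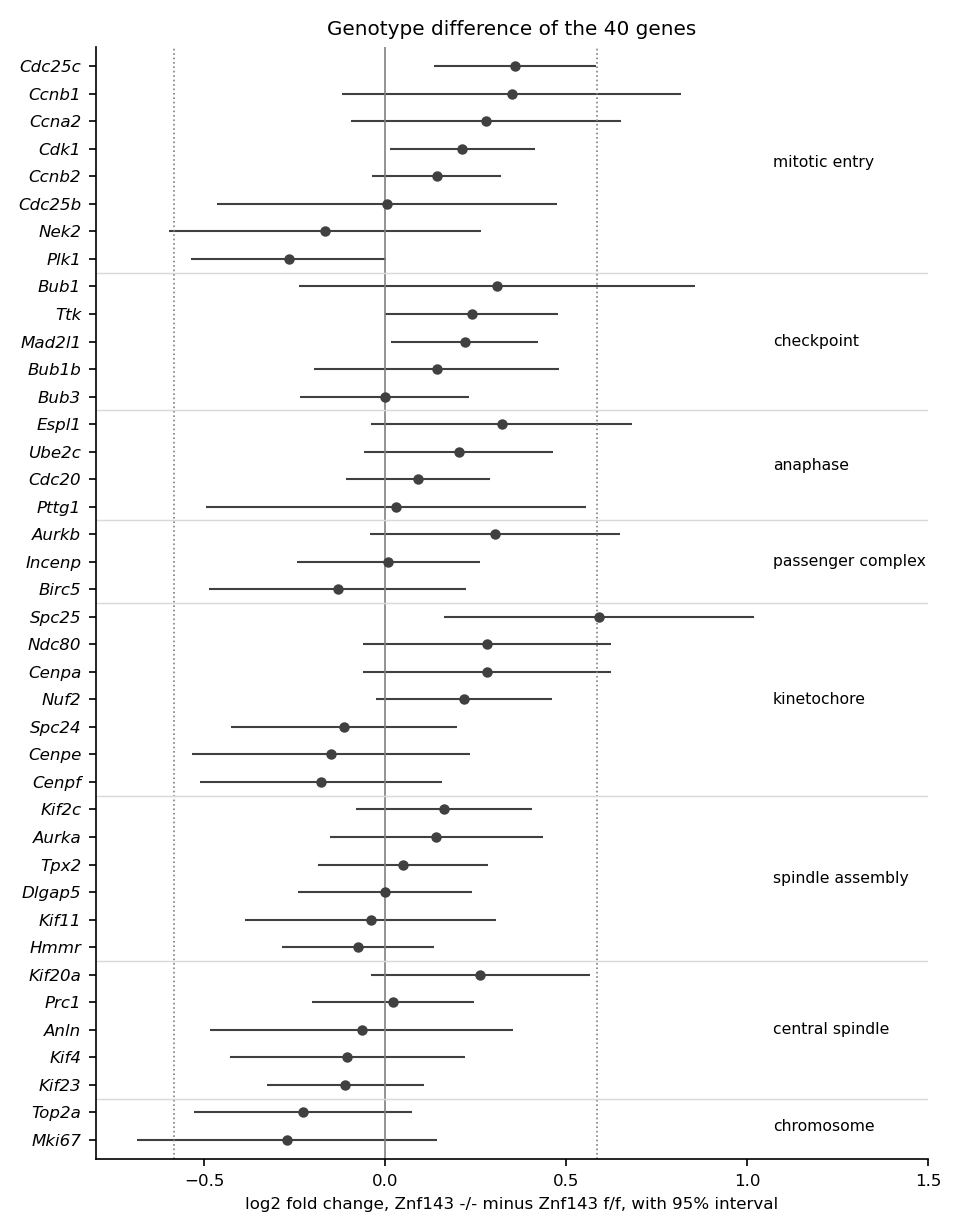
Log2 fold change of each of the 40 genes, Znf143 -/- minus Znf143 f/f (x axis), with bars for the 95% interval from limma, n = 3 libraries per genotype, grouped by role. Dotted lines mark a 1.5-fold difference in either direction. The estimates run from -0.27 to 0.59, and 30 of the 40 bars lie inside the dotted lines.

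The promoters share short motifs. The genes were chosen as genes of mitosis, so the shares of motifs of such genes are not independent of the choice. The set of all promoters was not matched to the 40 genes for level. RefSeq promoters of GRCm38.p6, 250 bases before to 50 after the start, were found for 32 of the 40 genes (34 promoters), and there were none for Ccna2, Cdc25c, Aurkb, Incenp, Spc24, Tpx2, Dlgap5 and Kif20a. The cell cycle genes homology region, or CHR element, is the site of the DREAM and MuvB complexes at genes of G2 and mitosis. Its letters TTTGAA, which read TTCAAA on the other strand, were in 25 of the 34 promoters (73.5%) and in 17.9% of all 32851 promoters. The CCAAT box, which reads ATTGG on the other strand and is bound by NF-Y, was in 27 (79.4%) and in 37.4% of all. Both were in 22 (64.7%), against 6.95% of all.

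Letters of the ZNF143 site were searched in the same windows. The core CCCAGNATG, or on the other strand CATNCTGGG, was in 4 of the 34 promoters (11.8%), those of Birc5, Bub1b, Nek2 and Spc25, against 2.04% of all. ACTACAA, or on the other strand TTGTAGT, which precedes the core in the longer form of the site, was in 3 (8.82%), those of Bub1b, Bub3 and Espl1, against 3.24% of all. Matches of different motifs overlapped in 1 of the 34 promoters. A match describes the letters and does not show binding.

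Of the 13 genes that the study lists as direct targets of ZNF143 (Espl1, Tpx2, Kif20a, Birc5, Bub1b, Bub3, Ccna2, Kif11, Nek2, Plk1, Incenp, Spc25 and Kif2c), 0 passed the test here and the median log2 fold change was 0.048. It was 0.090 for the other 27. The study drew up its list with expression from these libraries, so that the list is not independent of them.

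The bases just before the start are shown for a few genes, in capitals where a motif lies and otherwise in lower case, 5′ to 3′ on the strand of the gene. Cdk1, Ccnb2 and Top2a carry more than 1 CCAAT box in the stretch shown, and Cdk1 and Top2a also a CHR element. Espl1, Bub1b and Spc25 carry in addition letters of the ZNF143 site. They lie at chr10:69352913-69353022 (minus strand) for Cdk1, chr9:70421555-70421664 (minus) for Ccnb2, chr11:99024190-99024299 (minus) for Top2a, chr15:102296183-102296292 (plus) for Espl1, chr2:118598091-118598210 (plus) for Bub1b and chr2:69206214-69206403 (minus) for Spc25.
Cdk1: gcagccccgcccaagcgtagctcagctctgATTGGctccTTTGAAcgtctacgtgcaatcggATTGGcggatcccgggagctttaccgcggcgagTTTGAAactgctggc
Ccnb2: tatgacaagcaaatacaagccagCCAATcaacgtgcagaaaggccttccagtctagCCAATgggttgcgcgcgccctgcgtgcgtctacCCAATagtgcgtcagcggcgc
Top2a: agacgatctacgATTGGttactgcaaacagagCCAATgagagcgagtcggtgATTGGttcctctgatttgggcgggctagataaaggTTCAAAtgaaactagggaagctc
Espl1: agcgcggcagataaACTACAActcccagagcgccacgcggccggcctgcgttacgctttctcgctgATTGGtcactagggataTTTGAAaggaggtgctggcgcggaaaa
Bub1b: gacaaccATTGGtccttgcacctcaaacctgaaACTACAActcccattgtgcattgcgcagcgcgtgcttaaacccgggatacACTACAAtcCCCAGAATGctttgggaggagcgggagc
Spc25: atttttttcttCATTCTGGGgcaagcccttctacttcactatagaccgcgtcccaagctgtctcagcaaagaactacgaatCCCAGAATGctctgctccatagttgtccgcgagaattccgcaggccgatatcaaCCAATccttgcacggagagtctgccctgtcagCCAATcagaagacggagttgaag
In Cdk1 the CHR elements begin 71 and 15 bases before the start and the CCAAT boxes 80 and 48. In Ccnb2, CCAAT boxes begin 87, 54 and 21 bases before the start. In Bub1b, ACTACAA 37 bases before the start is followed by the core at 28, the longer form of the ZNF143 site, and a second ACTACAA stands at 87. In Spc25 the core occurs at 179 and 109 bases before the start, on opposite strands.

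**Figure D2:**
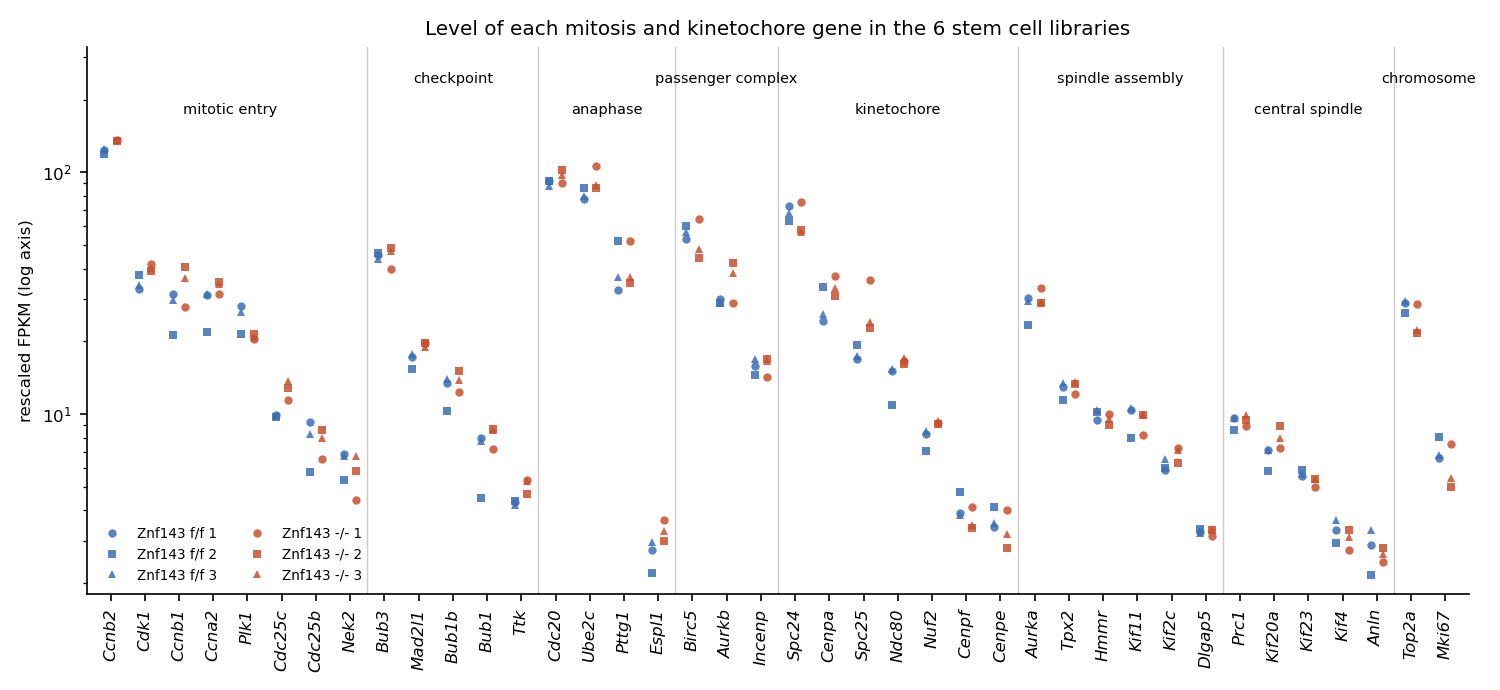
Rescaled FPKM of the 40 genes (y axis, log scale) in each of the 6 libraries, blue for Znf143 f/f and red for Znf143 -/-, with the symbol giving the library number, grouped by role and ordered by mean level. Levels span 2.16 to 135.6 FPKM, and for 28 of the 40 genes (70%) the colours overlap. Red lies wholly above blue for 10 (25%), against 15.4% of all genes tested, and wholly below for 2 (5%), against 15.3%.

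The group that opens mitosis holds 8 genes, of which 0 passed the test. Ccnb2, a cyclin B that activates Cdk1, was the most abundant of the 40. It had 123.9, 119.4 and 124.5 FPKM in f/f and 135.6, 134.8 and 135.6 FPKM in -/- libraries. The genotypes did not overlap, yet the difference was small, 122.6 ± 2.74 against 135.3 ± 0.466 FPKM (SD, n = 3), a log2 fold change of 0.14 ± 0.075 (SE, adjusted p = 0.299).

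Cdc25c, the phosphatase that activates Cdk1 at mitotic entry, had 9.96, 9.73 and 9.81 FPKM in f/f and 11.5, 12.8 and 13.7 FPKM in -/- libraries. Every -/- library was higher, and the fold was 1.28 (95% interval 1.098 to 1.498, adjusted p = 0.0751). Without -/- 1, the lowest of its genotype, it passed the test (log2 fold change 0.43, adjusted p = 0.0253). That fit called 4 of the 40 genes and 11% of all genes tested. With each close pair averaged the log2 fold change of Cdc25c was 0.33 (adjusted p = 0.632). Of the exon bases of Cdc25c, 12.7% lie in exons of Gm3550, so that reads of the pair may be mixed without strand.

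Cdk1, the kinase that drives mitosis, had 32.8, 37.7 and 34.2 FPKM in f/f and 41.7, 39.2 and 40.2 FPKM in -/- libraries, without overlap (log2 fold change 0.21, adjusted p = 0.186). Plk1, a kinase of mitotic entry and centrosome maturation, had the opposite sign, with 27.9, 21.5 and 26.5 FPKM in f/f and 20.4, 21.4 and 20.9 FPKM in -/- libraries. The gap between f/f 2 and the highest -/- library was narrow, and the log2 fold change was -0.27 (adjusted p = 0.211). Without f/f 2, Plk1 passed the test (-0.38, adjusted p = 0.0322), the only 1 of the 40 to do so, against 11.9% of all genes tested. Of the exon bases of Plk1, 7.09% lie in exons of Gm44985. Ccna2, Ccnb1, Cdc25b and Nek2 overlapped between genotypes, with log2 fold changes from -0.17 to 0.35.

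In the spindle assembly checkpoint, 0 of 5 genes passed the test. Bub3, which brings checkpoint kinases to unattached kinetochores, was the most abundant, with 45.5, 46.4 and 43.8 FPKM in f/f and 40.01, 48.8 and 47.1 FPKM in -/- libraries. The f/f values lay within the range of the -/- values, and the means were 45.2 ± 1.34 and 45.3 ± 4.68 FPKM (SD, n = 3). Its fold, 0.999 (95% interval 0.8497 to 1.17), changes sign with the scaling.

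Mad2l1, the Mad2 protein that blocks Cdc20, had 17.2, 15.4 and 17.7 FPKM in f/f and 19.7, 19.8 and 19.0 FPKM in -/- libraries. The genotypes did not overlap, and the fold was 1.16 (95% interval 1.01 to 1.34, adjusted p = 0.1804). Ttk, the kinase that starts the checkpoint, was also higher in every -/- library, 5.10 ± 0.364 against 4.30 ± 0.0935 FPKM (SD, n = 3, adjusted p = 0.209). The kinases Bub1 and Bub1b overlapped between genotypes, and f/f 2 was the lowest library for both.

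Of the 4 genes that bring about anaphase, 0 passed the test, and all 4 had positive log2 fold changes. Cdc20, the activator of the anaphase-promoting complex, had 92.3, 92.1 and 87.8 FPKM in f/f and 90.2, 102.6 and 97.3 FPKM in -/- libraries, which overlap (log2 fold change 0.090, adjusted p = 0.565). Espl1, the protease separase that cuts cohesin, had 2.76, 2.20 and 2.96 FPKM in f/f and 3.64, 3.0004 and 3.29 FPKM in -/- libraries. These did not overlap, although f/f 3 and -/- 2 nearly met, and the fold was 1.25 (95% interval 0.973 to 1.61, adjusted p = 0.253). Ube2c, the ubiquitin-conjugating enzyme of the complex, had a log2 fold change of 0.20 (adjusted p = 0.314), and 22.8% of its exon bases lie in exons of Tnnc2. Pttg1, the securin that holds separase inactive, split within each genotype, with 52.2 FPKM in f/f 2 and 51.9 FPKM in -/- 1 against 32.6 to 36.9 FPKM in the other 4 libraries.

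The chromosomal passenger complex corrects faulty attachments and acts in cytokinesis, and 0 of its 3 genes passed the test. Birc5, or survivin, had 53.1, 59.9 and 56.5 FPKM in f/f and 64.2, 44.2 and 48.1 FPKM in -/- libraries. The single highest and the lowest library were both -/-, and the log2 fold change was -0.13 ± 0.15 (SE, adjusted p = 0.640). Aurkb, the kinase of the complex, had 30.0, 28.9 and 28.7 FPKM in f/f and 28.9, 42.3 and 38.3 FPKM in -/- libraries. The first -/- library sat among the f/f libraries while the other two were higher. Aurkb was called without -/- 1 (log2 fold change 0.46, adjusted p = 0.0234) and not with all 6 libraries (0.30, adjusted p = 0.258). Without -/- 1, 11% of all genes tested were called. Incenp, the scaffold, had 15.7 ± 1.24 and 15.9 ± 1.44 FPKM (SD, n = 3).

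The kinetochore group held the largest estimate among the 40 genes, and 0 of its 7 genes passed the test. Spc25 lies on the minus strand of chromosome 2 at 69193895 to 69206194 (GRCm38) and encodes a subunit of the Ndc80 complex, the main coupler of kinetochores to microtubules. It had 17.0, 19.4 and 17.4 FPKM in f/f and 35.9, 22.7 and 24.1 FPKM in -/- libraries. Every -/- library was higher, with -/- 1 well above the others, and the fold was 1.51 (95% interval 1.12 to 2.03, adjusted p = 0.108). Without -/- 1 the estimate was smaller, a log2 fold change of 0.39 in place of 0.59. The spread was smaller too, and the adjusted p was 0.0490 in a fit that called 11% of all genes tested. With each close pair averaged the log2 fold change of Spc25 was 0.66 (adjusted p = 0.444).

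The other subunits of the same complex gave smaller differences. Spc24, which pairs with Spc25, had 72.9, 63.1 and 67.9 FPKM in f/f and 75.2, 58.0 and 56.5 FPKM in -/- libraries, which overlap (log2 fold change -0.12, adjusted p = 0.644). Ndc80 and Nuf2, the subunits that touch the microtubule, were higher in every -/- library, with log2 fold changes of 0.28 (adjusted p = 0.287) and 0.22 (adjusted p = 0.252). Cenpa overlapped between genotypes, with 27.9 ± 4.97 and 33.7 ± 3.30 FPKM (SD, n = 3), and so did Cenpe and Cenpf, a kinetochore motor and a large coiled-coil protein of the outer kinetochore, with log2 fold changes of -0.15 and -0.18.

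In spindle assembly, 0 of 6 genes passed the test. All 6 intervals lay within 1.5-fold, against 32.7% of all genes tested. With each close pair averaged, the intervals of Aurka and Kif2c reached beyond 1.5-fold, and those of Tpx2, Kif11, Dlgap5 and Hmmr did not. Aurka, the centrosome kinase, had 30.2, 23.4 and 29.5 FPKM in f/f and 33.1, 28.9 and 29.2 FPKM in -/- libraries, and the genotypes overlapped (log2 fold change 0.14, adjusted p = 0.538). Kif2c, a kinesin that takes microtubules apart at centromeres, had 5.87, 5.96 and 6.55 FPKM in f/f and 7.22, 6.27 and 7.13 FPKM in -/- libraries, also with overlap (0.16, adjusted p = 0.387). Tpx2, an activator of Aurka, the motor Kif11, and the microtubule-associated proteins Dlgap5 and Hmmr had log2 fold changes from -0.076 to 0.048.

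Among 5 genes of the central spindle and cytokinesis, 0 passed the test. All 5 intervals lay within 1.5-fold, against 32.7% of all genes tested. With each close pair averaged, the intervals of Kif23, Kif20a, Kif4 and Anln reached beyond 1.5-fold, and that of Prc1 did not. Prc1, which bundles antiparallel microtubules, had 9.60, 8.60 and 9.68 FPKM in f/f and 8.89, 9.49 and 9.91 FPKM in -/- libraries, with overlap (log2 fold change 0.021, adjusted p = 0.917). Kif20a, a kinesin of the central spindle, had 7.11, 5.85 and 7.11 FPKM in f/f and 7.22, 8.94 and 7.96 FPKM in -/- libraries. The genotypes did not overlap by a narrow margin (0.26, adjusted p = 0.263), and 29.3% of its exon bases lie in exons of Cdc23, so that reads of the pair may be mixed without strand. Kif23, a motor of the same structure, was lower in every -/- library by a small amount, 5.27 ± 0.231 against 5.70 ± 0.158 FPKM (SD, n = 3, adjusted p = 0.511). Kif4 and Anln overlapped between genotypes.

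The proteins that act on mitotic chromosomes were Top2a and Mki67, and 0 of 2 passed the test. Top2a, the topoisomerase that untangles sister chromatids, had 28.8, 26.1 and 29.3 FPKM in f/f and 28.6, 21.7 and 22.2 FPKM in -/- libraries. As with Aurkb, -/- 1 sat among the f/f libraries. Top2a was called without -/- 1 (log2 fold change -0.35, adjusted p = 0.0473), as were 11% of all genes tested. It was not called with all 6 (-0.23, adjusted p = 0.328). Mki67, the Ki-67 protein that coats mitotic chromosomes and is a standard marker of cycling cells, had 7.16 ± 0.787 FPKM in f/f and 5.99 ± 1.36 FPKM in -/- libraries (SD, n = 3), with overlap (-0.27, adjusted p = 0.394).

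The spread within a genotype was not the same for all libraries, and for these genes f/f 2 and -/- 1 departed from their own genotype in a related way. The median absolute log2 difference over the 40 genes was 0.049 between f/f 1 and f/f 3 and 0.076 between -/- 2 and -/- 3. It was 0.20 and 0.23 between f/f 2 and the other f/f libraries, 0.27 and 0.17 between -/- 1 and the other -/- libraries, and 0.14 to 0.31 between genotypes. The f/f 2 library was the highest or lowest of its genotype for 36 of the 40 genes and -/- 1 for 37. The others were so for 21 (f/f 1), 23 (f/f 3), 32 (-/- 2) and 11 (-/- 3). Over all genes tested the median differences were 0.11 and 0.10 for the close pairs. They were 0.30 to 0.34 for the other pairs of the same genotype and 0.30 to 0.41 between genotypes.

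Of the 40 genes, 11 were higher in both f/f 2 and -/- 1 than in the mean of the other libraries of the genotype and 17 were lower in both. Pttg1, Cenpa, Cenpe, Cenpf, Mki67 and Birc5 were among the former, and Ccnb1, Nek2, Bub1, Cdc25b and Kif11 among the latter. The same counts over all genes tested were not made. The correlation of the departures was 0.62 across the 40 genes and 0.088 across all 19279 genes tested, as a description of these libraries. The 40 genes sat at higher levels than most genes tested. No correlation was taken over other genes at such levels, so the 2 values are not matched for level. Over all genes the departures of f/f 2 and -/- 1 went with gene length (Spearman rho -0.19 and -0.24 across genes), while those of the other 4 libraries had rho of 0.13 to 0.21. Departures from the genotype mean cancel out within a genotype, so the opposite sign of the other 4 is not a separate observation. Across the 40 genes the rho of f/f 2 and -/- 1 with length was 0.16 and 0.11. The part of depth, amplification or cell cycle state in this pattern was not tested.

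**Figure D3:**
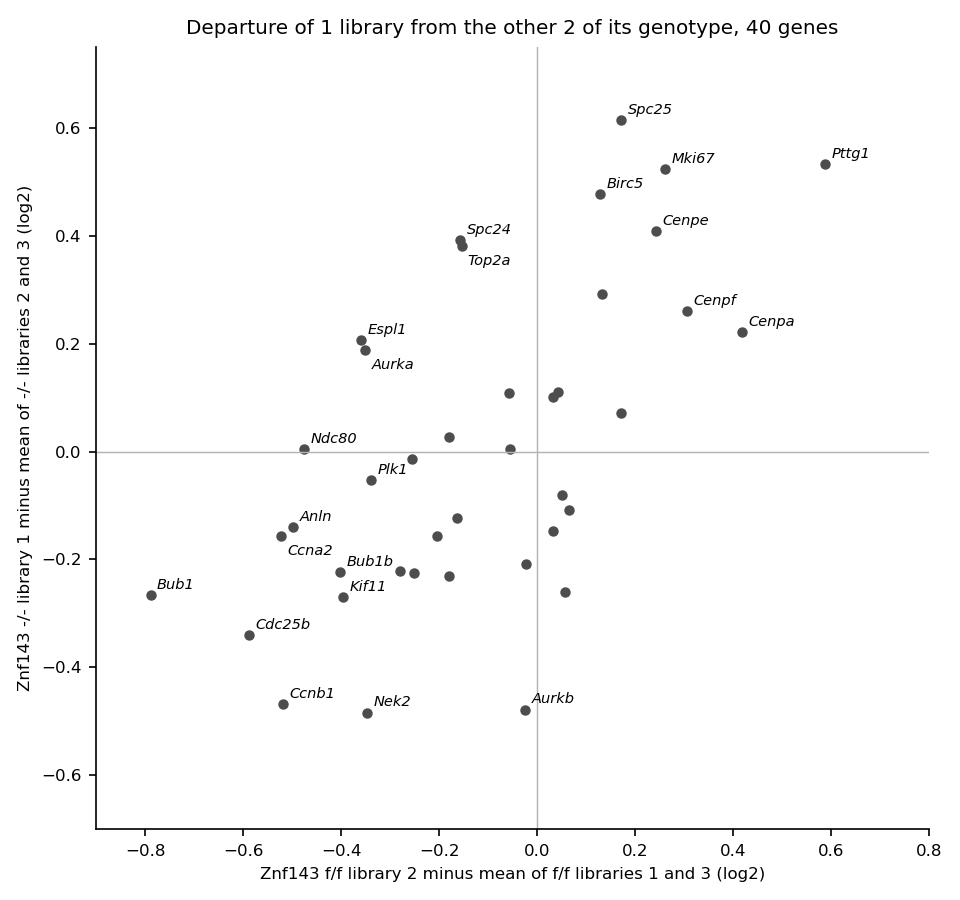
Departure of Znf143 f/f library 2 from the mean of the other f/f libraries (x axis, log2) against the departure of Znf143 -/- library 1 from the mean of the other -/- libraries (y axis, log2), a point for each of the 40 genes. Points lie mostly in the lower left (17 genes) and upper right (11 genes) corners.

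Without f/f 2 and -/- 1, the close pairs alone were compared and 16 of the 40 genes (40%) passed the test, against 42.4% of all genes tested. The share among the 40 was near that of all genes. Of the 16, 11 were higher in -/-, namely Aurkb, Mad2l1, Ccnb1, Ccnb2, Ccna2, Cdk1, Cenpa, Kif20a, Spc25, Ube2c and Cdc25c, with log2 fold changes from 0.12 to 0.45. The 5 lower were Plk1, Birc5, Top2a, Spc24 and Mki67, from -0.25 to -0.41. The spread between the 2 libraries of a close pair sets this test.

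The sum of the 40 genes was 946.5, 924.1 and 949.7 FPKM in f/f and 1042, 995.3 and 995.1 FPKM in -/- libraries. All -/- sums were above all f/f sums, at 1011 ± 27.02 against 940.1 ± 13.9 FPKM (SD, n = 3). Abundant genes such as Ccnb2, Cdc20 and Ube2c weigh most in such a sum. By role, sums did not overlap for mitotic entry, 242.6 to 273.4 FPKM in f/f and 279.3 to 298.4 FPKM in -/- libraries, and overlapped for the checkpoint, anaphase, passenger complex, kinetochore, spindle assembly, central spindle and chromosome genes. Of single genes tested, 15.4% had every -/- library above every f/f library. The sums were not tested, and they count the close libraries separately.

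Other mitotic genes, 97 in 6 lists (inner kinetochore and Cenpa loading, outer kinetochore, anaphase-promoting complex, condensin, further motors and spindle factors, further regulators of entry and exit), had 0 called higher and 1 called lower, with a median log2 fold change of 0.027. The one called was Numa1, which focuses spindle poles, with 10.2, 9.18 and 10.1 FPKM in f/f and 7.44, 5.95 and 6.19 FPKM in -/- libraries, without overlap (log2 fold change -0.58, adjusted p = 0.0360). Intervals lay within 1.5-fold for 72 of the 97. Of all genes tested, 3% were called higher, 2.99% were called lower and 32.7% had intervals within 1.5-fold.

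Genes of DNA replication, the step before mitosis, gave 1 called higher and 1 called lower of 30, against 3% and 2.99% of all genes tested. Their median log2 fold change was 0.10. Pcna, the sliding clamp of replication, rose from 106.2 ± 3.73 to 136.4 ± 4.47 FPKM (SD, n = 3, log2 fold change 0.36, adjusted p = 0.0492). Prim1, a primase subunit, fell from 29.8 ± 0.390 to 22.3 ± 1.28 FPKM (SD, n = 3, log2 fold change -0.42, adjusted p = 0.0315). With each close pair averaged, Numa1, Pcna and Prim1 had adjusted p-values of 0.463, 0.612 and 0.433.

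**Figure D4:**
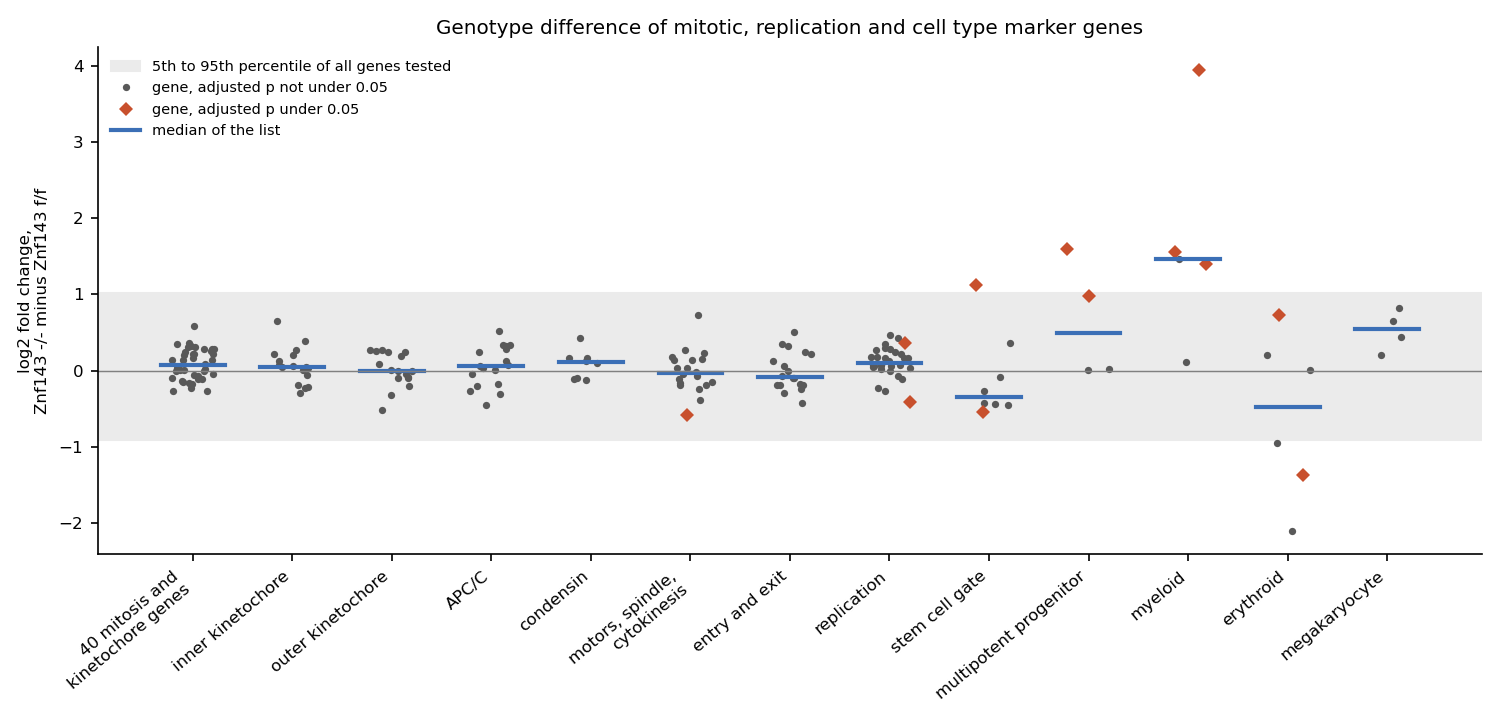
Log2 fold change, Znf143 -/- minus Znf143 f/f (y axis), of each tested gene of the 40 and of other mitotic, replication and cell type marker lists (x axis), with blue bars for list medians and diamonds for genes at an adjusted p under 0.05. The grey band spans the 5th to 95th percentile of all genes tested, -0.91 to 1.01, and all 40 genes lie inside it.

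Markers of the gate and of other blood cells differed between genotypes beside these values. The summed level was 473.1 to 529.5 FPKM in f/f and 751.5 to 799.0 FPKM in -/- libraries for 8 stem cell gate genes, of which Ly6a was called higher and Mecom lower. It was 108.1 to 111.2 and 126.4 to 135.3 FPKM for 4 multipotent progenitor genes, with Flt3 (log2 fold change 1.59) and Cd48 (0.97), the gene of the antigen used for exclusion, called higher. It was 19.8 to 41.1 and 71.6 to 82.7 FPKM for 6 myeloid genes, with Elane, Csf1r and S100a8 called higher, and 526.7 to 599.2 and 646.1 to 977.1 FPKM for 4 megakaryocyte genes, with 0 called. For 6 erythroid genes it was 61.9 to 200.5 and 65.7 to 69.0 FPKM, with Gata1 called higher and Hbb-bt lower, and the highest value was f/f 2. The 4 lymphoid genes listed of 6 summed to under 0.2 FPKM in each library. With each close pair averaged, Flt3 was the only one of these marker genes still called (adjusted p = 0.0405). The adjusted p was then 0.144 for Ly6a, 0.409 for Mecom, 0.140 for Cd48, 0.187 for Elane, 0.426 for Csf1r, 0.280 for S100a8, 0.199 for Gata1 and 0.263 for Hbb-bt. The part of these cells in the values of the mitotic genes was not tested.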

How the data were processed

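RNA-seq of 3 Znf143 f/f and 3 Znf143 -/- HSLAM samples was analysed, and the ChIP-seq and HiC samples were not analysed here. Reads had been trimmed (TrimGalore), aligned to GRCm38 (STAR) and counted (FeatureCounts) by the authors, who deposited FPKM per library, beside the fold changes and p-values of their own comparison, which were not used. The 40 genes and the other lists were chosen with earlier results of these data known. Fragments were recovered from FPKM times length (138677 of 138696 values whole within 0.05). FPKM were rescaled by median-of-ratios factors over 19046 genes, and log2(FPKM + 0.1) of genes with a mean of at least 0.1 was fitted in limma 3.58.1 (lmFit and trended eBayes, two-sided, Benjamini-Hochberg) in R 4.3.3, without a block. The log2(FPKM + 0.1) scale slightly understates changes of low genes. Python 3.11.15 was used. Fits were tested on simulated data. Values per library were given for the most abundant gene and that of lowest p in each of 8 roles, and for Cdk1, Plk1 and Pttg1, chosen after their values were seen. Non-member genes were named at an adjusted p under 0.05. Promoters came from RefSeq (GRCm38.p6) and exons from GENCODE vM21, and 11 of the 40 genes share exon bases with another gene. For 8 genes the shared part was over 5% of the exon bases. Alternatives changed scaling, pseudocount, filter, variance trend, tool, block and libraries.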

Additional observations from a re-analysis of the deposited data

How the results depend on the processing

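No gene of the 40 was called under either other scaling (FPKM as deposited or divided by the recovered total), a pseudocount of 0.01 or 1, no filter, a mean of at least 1, voom, no variance trend, the replicate block, or with each close pair averaged. With 1 library left out at a time, 0 to 3 were called higher and 0 to 1 lower, while 1.16% to 11.9% of all genes tested were called. The median log2 fold change of the 40 was then 0.021 to 0.12. Without both f/f 2 and -/- 1 (added after the data were seen), 11 were called higher and 5 lower. The median was 0.18 as deposited, where the median of all genes was 0.11 against 0.0065 rescaled, a shift of 0.11, and 32 of the 40 values were positive in place of 25. Higher genes made up 63.5% of 833 calls as deposited and 50.1% of 1154 rescaled. The number of all genes called was 191 with the replicate block, 223 to 2280 with 1 library left out, 8108 without f/f 2 and -/- 1, and 47 with each close pair averaged.

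Bub3 turned from -0.0016 to 0.11 as deposited, 0.028 with the recovered total, 0.10 without f/f 2 and -/- 1, and -0.058 to 0.085 with 1 library left out. Prc1 ranged from -0.033 to 0.062 with 1 library left out, and Aurka from 0.024 to 0.21, but was -0.038 without f/f 2 and -/- 1. The cause was not tested.

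The replicate block called 0 of the 40 higher and 0 lower, with a median of 0.069. The mice were 3 pairs of littermates, and no source used here ties the numbers to the pairs. The deviations of same-numbered libraries had r of -0.095, -0.088 and 0.035 over all genes and -0.64, -0.62 and 0.41 over the 40, and those of f/f 1 with -/- 2 and of f/f 2 with -/- 1 had 0.66 and 0.62 over the 40. Deviations from the genotype mean cancel out within a genotype, so these r are not independent of each other. The numbers were not taken as pairs, and which libraries are paired is not known here. With 3 libraries a genotype, and 2 of them close, the 95% interval reached beyond 1.5-fold for 10 of the 40 genes.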
